A study of Mus musculus with 10 samples.

Results

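Kupffer cells, the macrophages that live in the blood sinusoids of the liver, and macrophages more broadly were followed through 10 marker genes: *Clec4f*, *Vsig4*, *Cd5l*, *Marco*, *Adgre1*, *Csf1r*, *Cd163*, *C1qa*, *C1qb* and *C1qc*. The list was set by gene name, and all 10 markers were found among the 12148 genes of the count table by matching Ensembl identifiers to symbols of the GENCODE annotation of GRCm38. The livers came from 10 germ-free (GF) mice, labelled WT and C57BL6, so both groups shared the strain, the genotype and the absence of a gut microbiota. Mice of the GF+MEV group (n = 5) were dosed by mouth, repeatedly over several weeks, with microbiota-derived extracellular vesicles (MEV), which are membrane particles shed by gut bacteria and were purified here from the caecal content and stool of specific-pathogen-free control animals. Mice of the GF+PBS group (n = 5) received the carrier, phosphate-buffered saline (PBS). Each library was made from the whole liver tissue of 1 mouse, without sorting of cells, and the age and sex of the mice are not given in the sources used here. In such bulk RNA, fewer cells of a type and less RNA per cell cannot be told apart.

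Kupffer cells take up bacteria, bacterial fragments and aged red blood cells that arrive with portal blood. They depend on signalling through CSF1R for survival, and in mice they are known by a set of surface receptors that other liver cells largely lack. Among the markers, *Clec4f* encodes a lectin that in mice is largely restricted to Kupffer cells, *Vsig4* a receptor for complement fragments that captures bacteria from blood, and *Marco* a scavenger receptor for bacterial surfaces. *Cd5l* encodes a secreted protein of tissue macrophages, *Adgre1* the F4/80 antigen, *Csf1r* the receptor for the growth factors CSF1 and IL-34, and *Cd163* the receptor that clears haemoglobin bound to haptoglobin. *C1qa*, *C1qb* and *C1qc* encode the chains of C1q, which starts the classical complement pathway.

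The libraries held between 15746119 and 20523649 counts on genes. Levels are given as CPM, read counts scaled to the size of their library and then between libraries by the TMM method, and groups were compared with the edgeR quasi-likelihood test, in which a gene was called at a Benjamini-Hochberg adjusted p under 0.05 over 12147 genes. *Alb*, the albumin gene of hepatocytes, lay between 64586 and 83247 CPM in the 10 livers, and each of the 8 hepatocyte markers was detected in every liver. A single library stood apart in the macrophage markers. GF+MEV liver 4 had the highest level of its group for 10 of 10 markers, whereas 22.4% of all genes were highest in that liver. For 3 markers, *Marco*, *Adgre1* and *C1qc*, its distance from the other 4 was large against the range of the group by Dixon's criterion, as for 1.09% of all genes. Its depth of 17658333 counts lay within the range of the others. Results are therefore given for all 10 livers and again without it, as one of the fits in which each liver was left out in turn. A fit in which GF+PBS livers 1 and 3, and livers 4 and 5, were each summed into 1 sample is given where it changed a call. It allows for a possible likeness between these libraries, which the labels do not state and for which no measure is given here.

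None of the 10 markers was called between GF+MEV and GF+PBS livers, against 7.64% of all genes, by edgeR, limma-voom likewise called 0 of 10, and DESeq2 called 0 of the 9 markers for which it gave an adjusted p, with none given for *Marco*. The groups overlapped for each marker, whereas they were apart for 7.39% of all genes. A single marker, *Cd163*, had an unadjusted edgeR p under 0.05, as did 21.2% of all genes. The median log2 fold change of the 10 markers, GF+MEV over GF+PBS, was -0.11, with a median of -0.0037 over all genes. Without GF+MEV liver 4, the markers *Marco*, *Cd5l* and *Vsig4* were called lower in GF+MEV livers, that is 3 of 10 markers against 3.14% of all genes called lower and 3.66% called higher. In that fit, 7 of 10 markers had an unadjusted p under 0.05 (20.1% of all genes), 9 of 10 had a negative log2 fold change (51.1% of all genes), and their median was -0.29, with -0.0044 over all genes. GF+MEV liver 4 was singled out for its high levels of these same markers, so leaving it out favours lower GF+MEV levels. The marker p-values and counts without it are therefore a description, and the shares over all genes are no like comparison. When any other liver was left out instead, no marker was called.

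**Figure D1:**
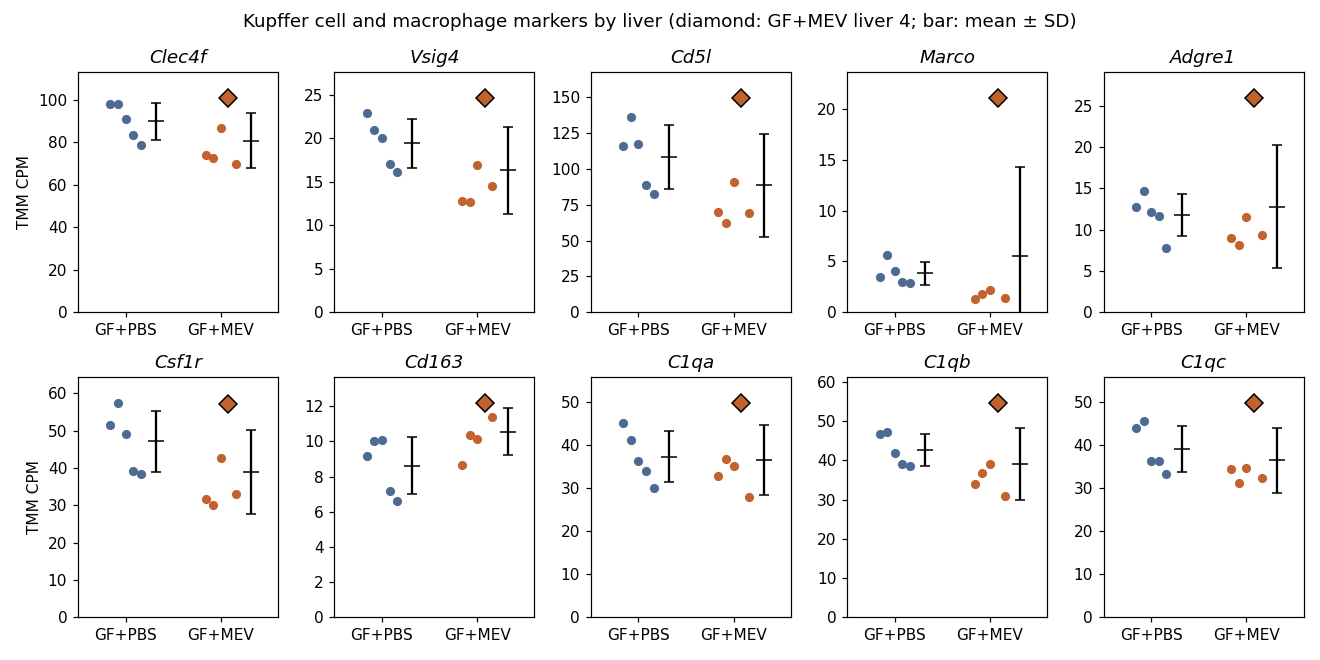
Level in CPM (y axis, from 0) of each of the 10 markers in each GF+PBS and GF+MEV liver (points), with the mean and SD of the 5 livers of a group beside them. The diamond is GF+MEV liver 4, which was the highest of its group in every panel and the highest of all 10 livers in 9 of 10 panels.

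The receptors that define Kupffer cells differed in how far GF+MEV liver 4 stood from its group. *Clec4f* was at 73.9, 72.7, 86.5, 101 and 69.7 CPM in GF+MEV livers 1 to 5 and at 97.9, 98.1, 91.0, 83.5 and 78.7 CPM in GF+PBS livers 1 to 5. It was the steadiest of the markers, with a highest level 1.45 times the lowest over the 10 livers, and 3 GF+MEV livers lay under all GF+PBS livers. Its log2 fold change was -0.15 (SE 0.12, edgeR adjusted p = 0.416), with a 95% interval from -0.37 to 0.05 by limma-voom, and the exact two-sided permutation p over the 252 ways to split 10 livers was 0.198. Without GF+MEV liver 4 it was -0.25 (edgeR adjusted p = 0.107).

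*Vsig4* was at 12.7, 12.7, 16.8, 24.6 and 14.5 CPM in GF+MEV livers 1 to 5 and at 22.9, 20.9, 19.996, 16.98 and 16.1 CPM in GF+PBS livers 1 to 5. GF+MEV liver 4 was thus the highest of all livers, while livers 1, 2 and 5 of that group were under every GF+PBS liver. The log2 fold change of *Vsig4* was -0.24 (SE 0.20, edgeR adjusted p = 0.436), and without GF+MEV liver 4 it was -0.44 (SE 0.13, edgeR adjusted p = 0.046), past the threshold. That call was absent with limma-voom (adjusted p = 0.055) and with the GF+PBS pairs summed (edgeR adjusted p = 0.084).

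*Marco* had the widest range of the markers, with counts from 21 to 377 reads, the highest level being 16.5 times the lowest over 10 livers and 4.42 times over 9 without GF+MEV liver 4. It was at 1.28, 1.79, 2.173, 21.2 and 1.35 CPM in GF+MEV livers 1 to 5 and at 3.44, 5.66, 4.11, 2.98 and 2.88 CPM in GF+PBS livers 1 to 5. The other 4 GF+MEV livers were all under the lowest GF+PBS liver, whereas GF+MEV liver 4 was 12.8 times their mean and 3.74 times the highest GF+PBS liver. The direction of the group difference turned with this liver. Over all livers the log2 fold change was 0.56 by edgeR (adjusted p = 0.692) but -0.39 by limma-voom, with a 95% interval from -1.60 to 0.81. The SE of 0.76 comes from the spread of log2 CPM and is not that of the edgeR estimate. Without GF+MEV liver 4 it was -1.19 (SE 0.24, edgeR adjusted p = 0.0088), and *Marco* was then the marker with the largest difference and the 1 of 10 whose groups did not overlap (9.56% of all genes in that comparison). It was also called lower without that liver by DESeq2, by limma-voom, under each of 3 other normalizations and with the GF+PBS pairs summed, with log2 fold changes from -1.28 to -1.16.

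*Cd5l*, the most abundant marker per exon length, was at 70.2, 62.3, 91.1, 149.8 and 69.0 CPM in GF+MEV livers 1 to 5 and at 116, 136, 118, 88.4 and 82.4 CPM in GF+PBS livers 1 to 5. Both ends of the range lay in the GF+MEV group, with GF+MEV liver 4 at 2.05 times the mean of the other 4. The log2 fold change was -0.29 (SE 0.27, edgeR adjusted p = 0.478) over all livers and -0.56 (SE 0.18, edgeR adjusted p = 0.033) without GF+MEV liver 4. With the GF+PBS pairs also summed, the second value was -0.61 and no longer passed (edgeR adjusted p = 0.053).

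**Figure D2:**
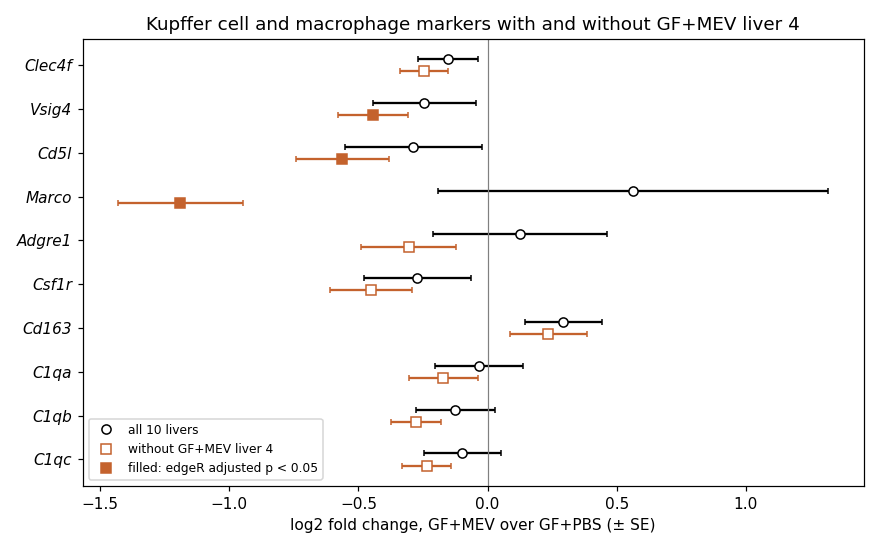
Log2 fold change of each marker by edgeR, GF+MEV over GF+PBS (x axis). Bars are an SE computed on log2 CPM, apart from the edgeR fit. Black circles are for all 10 livers. Coloured squares are without GF+MEV liver 4, filled where the edgeR adjusted p was under 0.05. Without that liver *Marco* moved from 0.56 to -1.19 and *Adgre1* from 0.13 to -0.31, and *Vsig4*, *Cd5l* and *Marco* passed the threshold.

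The general macrophage receptors were not called, with or without that liver, by edgeR after TMM scaling. *Adgre1* was at 8.97, 8.14, 11.5, 26.0 and 9.32 CPM in GF+MEV livers 1 to 5 and at 12.7, 14.6, 12.1, 11.6 and 7.81 CPM in GF+PBS livers 1 to 5. GF+MEV liver 4 was 2.74 times the mean of the other 4 livers of its group, which themselves lay inside the range of the GF+PBS livers. Its log2 fold change was 0.13 (SE 0.34, edgeR adjusted p = 0.854) and, without GF+MEV liver 4, -0.31 (edgeR adjusted p = 0.314).

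*Csf1r* was at 31.6, 30.2, 42.6, 57.2 and 33.1 CPM in GF+MEV livers 1 to 5 and at 51.5, 57.4, 49.2, 39.2 and 38.3 CPM in GF+PBS livers 1 to 5. It was the 1 marker whose highest level was in a GF+PBS liver, liver 2, although GF+MEV liver 4 nearly matched it. The log2 fold change was -0.27 (SE 0.21, edgeR adjusted p = 0.377) and -0.45 without GF+MEV liver 4 (edgeR adjusted p = 0.058). The latter difference was called by DESeq2 (adjusted p = 0.018) and by edgeR with upper-quartile scaling (adjusted p = 0.034) or none (adjusted p = 0.038). Exons of *Csf1r* share 873 bases with *Hmgxb3* on the opposite strand. How reads in these bases were counted is not known, so the level of *Csf1r* is uncertain in either direction. The exons of the other 9 markers overlapped no annotated gene.

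*Cd163* ran the other way. It was at 8.66, 10.35, 10.14, 12.2 and 11.4 CPM in GF+MEV livers 1 to 5 and at 9.16, 10.03, 10.06, 7.18 and 6.61 CPM in GF+PBS livers 1 to 5. Of the GF+MEV livers, 4 were above all GF+PBS livers and liver 1 was inside their range. The log2 fold change was 0.29 (SE 0.15, edgeR adjusted p = 0.222), with a limma-voom 95% interval from 0.02 to 0.59 and an exact permutation p of 0.095. *Cd163* was the only marker with a positive value in the fit without GF+MEV liver 4, at 0.24 (edgeR adjusted p = 0.390).

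The C1q chains varied together from liver to liver. *C1qa* was at 32.8, 36.7, 35.0, 49.7 and 27.9 CPM in GF+MEV livers 1 to 5 and at 45.0, 41.1, 36.3, 34.0 and 30.0 CPM in GF+PBS livers 1 to 5. *C1qb* was at 34.0, 36.8, 39.2, 54.7 and 31.0 CPM, against 46.7, 47.2, 42.0, 39.1 and 38.6 CPM. *C1qc* was at 34.5, 31.2, 34.7, 49.9 and 32.4 CPM, against 44.0, 45.7, 36.4, 36.4 and 33.2 CPM. In each chain GF+MEV liver 4 was the highest of all 10 livers and the groups overlapped. The log2 fold changes were -0.03 (SE 0.17) for *C1qa*, -0.13 (SE 0.15) for *C1qb* and -0.10 (SE 0.15) for *C1qc*, with edgeR adjusted p-values of 0.929, 0.631 and 0.718. Their limma-voom 95% intervals ran from -0.34 to 0.25, from -0.41 to 0.12 and from -0.37 to 0.16. Without GF+MEV liver 4 they were -0.17, -0.28 and -0.24, none past the threshold, and *C1qb* came nearest (edgeR adjusted p = 0.084). With upper-quartile scaling (adjusted p = 0.046) or none (adjusted p = 0.032), edgeR called *C1qb* lower in that comparison.

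Per length of exon, in RPKM, which is CPM divided by the exon length of the gene in kilobases, the chains made up steady shares of their sum. *C1qa* held from 35.4% to 41.4%, *C1qb* from 38.7% to 43.5% and *C1qc* from 18.9% to 23.3% of the summed C1q RPKM in the 10 livers. These ranges of share include GF+MEV liver 4, at 38.6%, 40.6% and 20.8%, so all 3 chains were higher there in nearly the usual proportion. The summed CPM of the chains was 154 in that liver, from 91.3 to 109 in the other GF+MEV livers and from 102 to 136 in the GF+PBS livers.

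**Figure D3:**
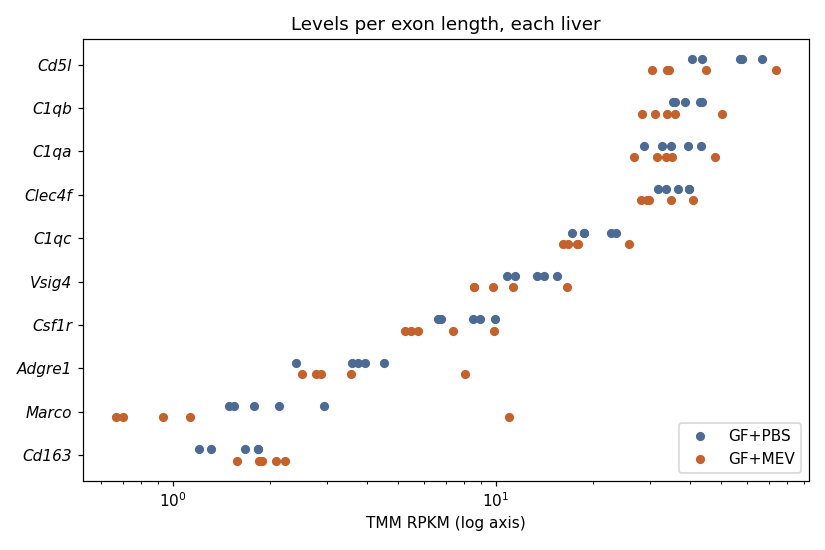
Level of each marker per exon length in TMM RPKM (x axis, log scale) in each GF+PBS and GF+MEV liver, ordered by the mean over the 10 livers. *Cd5l*, *C1qb*, *C1qa* and *Clec4f* overlap at the top, and the single GF+MEV point far to the right for *Marco*, at 10.99 RPKM, is liver 4.

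Compared per exon length over the 10 livers, *Cd5l* was the highest marker at 48.3 ± 14.8 RPKM (SD, n = 10), followed by *C1qb* at 37.6 ± 6.42, *C1qa* at 35.4 ± 6.46 and *Clec4f* at 34.5 ± 4.64. The ranges of these 4 genes overlapped. *C1qc* came next at 19.6 ± 3.29 RPKM, with every liver under every value of the first 4 genes. *Vsig4* was at 12.02 ± 2.79 RPKM, *Csf1r* at 7.45 ± 1.78, *Adgre1* at 3.79 ± 1.63, *Marco* at 2.43 ± 3.09 and *Cd163* at 1.75 ± 0.32 RPKM. Each neighbouring pair from *C1qc* downward overlapped in range.

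The markers moved together among livers of the same group. With the group means removed, the Pearson correlation of log2 CPM over the 10 livers lay between 0.79 and 0.99 (median 0.91) for the 36 pairs of markers that leave out *Cd163*, and without GF+MEV liver 4 between 0.54 and 0.99 (median 0.79). The 9 pairs with *Cd163* lay between 0.52 and 0.71. Both genes of a pair are read from the same libraries and share their depth, and these values are a description. GF+PBS livers also differed in a common direction, with liver 2 the highest of that group for 7 markers, liver 1 for 2 and liver 3 for 1, so livers 4 and 5 were the highest for none.

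**Figure D4:**
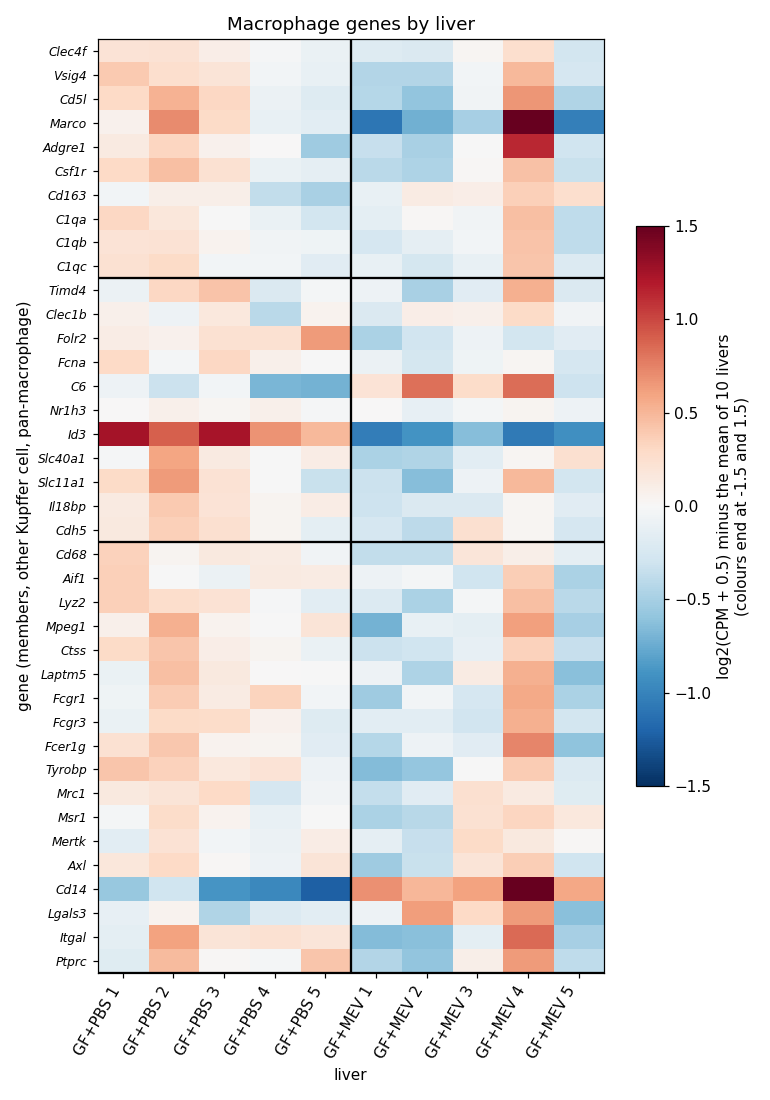
Log2 of CPM + 0.5 minus the mean of the 10 livers (colour, ending at -1.5 and 1.5) for the 10 markers at the top, 11 other Kupffer cell genes and 18 pan-macrophage genes (rows) in each liver (columns). The column of GF+MEV liver 4 is high for nearly all markers and pan-macrophage genes, while *Id3* and *Cd14* separate the GF+MEV livers from the GF+PBS livers.

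The sequence just upstream of the marker genes is shown because the genes moved together. RefSeq promoters of GRCm38.p6, from 250 bases before to 50 bases after the start site, matched 7 of the 10 markers. The letters GAGGAA, the core recognized by PU.1, a transcription factor that macrophages need, were on either strand in 5 of these 7 windows and in 28.3% of 32851 promoters of the same length. The letters TGCTGA, part of the site of Maf factors, was in 4 of 7, *C1qb*, *Cd5l*, *Clec4f* and *Vsig4*, and in 19.5% of all promoters, and the AP-1 motif TGANTCA was in 0 of 7 and in 7.81%. These motifs were picked after several had been tried on the same promoters. The 5 windows with GAGGAA are printed 5′ to 3′ along the strand of the gene, with each match, or its complement TTCCTC, in capitals. They lie at chr4:136886151-136886450 on the minus strand for *C1qb*, chr4:136892865-136893164 on the minus strand for *C1qc*, chr3:87357631-87357930 on the plus strand for *Cd5l*, chr1:120504975-120505274 on the minus strand for *Marco* and chrX:96293389-96293688 on the minus strand for *Vsig4*. The last is the window of *Cd163*, the marker that correlated least with the rest, at chr6:124304401-124304700 on the plus strand, which holds none of the 3 motifs. The window of *Clec4f*, not printed, also lacks GAGGAA. With group means removed, *Clec4f* correlated at 0.84 to 0.97 with the markers other than *Cd163* over the 10 livers. Whether the motifs bear on how the markers moved was not tested.
C1qb: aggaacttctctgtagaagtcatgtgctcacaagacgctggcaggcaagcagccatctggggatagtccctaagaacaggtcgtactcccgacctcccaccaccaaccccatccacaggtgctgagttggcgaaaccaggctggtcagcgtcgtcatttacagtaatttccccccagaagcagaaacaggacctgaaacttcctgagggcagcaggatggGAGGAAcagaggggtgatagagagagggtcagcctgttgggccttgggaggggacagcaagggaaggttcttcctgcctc
C1qc: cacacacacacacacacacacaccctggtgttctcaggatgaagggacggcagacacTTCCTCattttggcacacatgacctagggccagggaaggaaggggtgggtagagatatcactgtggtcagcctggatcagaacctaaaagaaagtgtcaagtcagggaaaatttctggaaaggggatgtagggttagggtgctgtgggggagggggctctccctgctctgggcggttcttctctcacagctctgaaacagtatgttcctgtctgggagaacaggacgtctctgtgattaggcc
Cd5l: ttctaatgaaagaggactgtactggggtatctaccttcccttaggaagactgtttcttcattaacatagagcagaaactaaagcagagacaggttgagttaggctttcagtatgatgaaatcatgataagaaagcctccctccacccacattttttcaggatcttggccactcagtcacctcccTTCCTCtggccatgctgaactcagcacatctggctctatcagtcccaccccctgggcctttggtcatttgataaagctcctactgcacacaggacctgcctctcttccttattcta
Marco: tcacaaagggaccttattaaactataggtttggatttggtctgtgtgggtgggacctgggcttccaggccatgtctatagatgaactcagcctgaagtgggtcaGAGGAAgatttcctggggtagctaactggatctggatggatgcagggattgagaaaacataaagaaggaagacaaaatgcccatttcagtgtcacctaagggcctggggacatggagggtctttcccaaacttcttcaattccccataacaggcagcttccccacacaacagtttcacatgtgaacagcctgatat
Vsig4: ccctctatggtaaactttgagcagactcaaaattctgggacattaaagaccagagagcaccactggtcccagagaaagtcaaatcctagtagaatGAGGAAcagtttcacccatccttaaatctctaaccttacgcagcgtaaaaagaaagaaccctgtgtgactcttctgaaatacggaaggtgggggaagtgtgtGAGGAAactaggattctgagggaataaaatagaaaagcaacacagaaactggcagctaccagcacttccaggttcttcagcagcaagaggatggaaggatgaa
Cd163: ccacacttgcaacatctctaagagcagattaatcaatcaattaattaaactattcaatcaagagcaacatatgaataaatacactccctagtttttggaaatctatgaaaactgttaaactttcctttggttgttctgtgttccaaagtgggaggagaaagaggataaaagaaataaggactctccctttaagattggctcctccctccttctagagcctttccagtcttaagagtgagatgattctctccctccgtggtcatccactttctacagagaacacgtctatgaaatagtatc

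*C1qb*, *C1qc* and *C1qa* lie side by side on the minus strand of chromosome 4, at 136880129 to 136886187, 136889804 to 136893065 and 136895917 to 136898803 of GRCm38. The other markers are on other chromosomes or, as with *Clec4f* and *Cd163* on chromosome 6, far apart, at 83644542 to 83656187 and 124304656 to 124330527.

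Of 11824 other genes whose mean reached 1 CPM, those whose log2 CPM followed the mean of the markers most closely within groups were *Ctss*, *Pld4*, *Pilra*, *Adgre5*, *Adamdec1*, *Cd300a*, *Lyz2* and *Cyba*, with correlations from 0.95 to 0.98 over the 10 livers. *Ctss* encodes the lysosomal protease cathepsin S, *Lyz2* the lysozyme of macrophages and neutrophils, and *Cyba* a subunit of the phagocyte oxidase. Over the 9 livers without GF+MEV liver 4, the correlations of these 8 genes ran from 0.86 for *Cyba* to 0.97 for *Ctss*, and other genes were not ranked over those livers. *Ctss* was at 36.0 CPM in GF+MEV liver 4 and from 22.2 to 26.0 CPM in the other GF+MEV livers. A gene picked for following the markers over livers that include this one is bound to be high there, so this is no separate observation.

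Other Kupffer cell genes were called in both directions. Of 11 tested genes, 2 were called lower and 1 higher, against 7.64% of all genes called in either direction. Their median log2 fold change was -0.27. *Id3*, which encodes an inhibitor of DNA binding that Kupffer cells express as part of their identity, was at 18.2 ± 2.30 CPM in the 5 GF+MEV livers, which lay under all 5 GF+PBS livers at 66.4 ± 15.5 CPM (mean ± SD). It fell by 1.87 on the log2 scale (SE 0.17, edgeR adjusted p = 1.1e-06), and GF+MEV liver 4, at 16.2 CPM, was the lowest of all livers for it. *Il18bp*, the decoy for interleukin 18, fell by 0.37 (edgeR adjusted p = 0.027), and *C6*, a terminal complement component, rose by 0.77 (edgeR adjusted p = 0.027). The call of *C6* was lost without GF+MEV liver 2 or 4 or GF+PBS liver 4 or 5 (edgeR adjusted p from 0.059 to 0.075), and that of *Il18bp*, whose exons share 80 bases with *Numa1* on the other strand, without GF+MEV liver 1, 2 or 3 or GF+PBS liver 2 or 3 (edgeR adjusted p from 0.055 to 0.067). Both calls were also lost with the GF+PBS pairs summed (edgeR adjusted p = 0.085 for *C6* and 0.060 for *Il18bp*). *Folr2*, a folate receptor of resident macrophages that shares 975 exon bases with the antisense gene Gm10602, was without overlap at 0.581 ± 0.111 CPM in GF+MEV and 1.05 ± 0.263 CPM in GF+PBS livers but did not pass (edgeR adjusted p = 0.063). *Id3* is expressed by other liver cells too, and which cells carried the differences of *Id3*, *Il18bp* and *C6* was not tested.

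Pan-macrophage genes were like the markers in where they were highest. Of 18 genes, 15 were highest of their group in GF+MEV liver 4, the median log2 fold change was -0.21, and 1 was called. That gene was *Cd14*, the co-receptor for bacterial lipopolysaccharide, which stood at 7.70 ± 2.99 CPM with MEV and 2.19 ± 0.687 CPM with PBS (mean ± SD, n = 5), a rise of 1.81 on the log2 scale (SE 0.28, edgeR adjusted p = 0.00036). Its level in GF+MEV liver 4 was 13.02 CPM, against 5.93 to 6.83 CPM in the other 4, and it stayed called without that liver at 1.53. Without GF+MEV liver 4, 5 pan-macrophage genes were called lower, *Lyz2*, *Mpeg1*, *Ctss*, *Tyrobp* and *Itgal*, with log2 fold changes from -0.73 to -0.41. Over all genes, 3.14% were called lower in that fit. Most genes of this list were highest of their group in the liver left out, which favours lower GF+MEV levels. These calls are therefore a description, and the share over all genes is no like comparison. *Lyz2* has a near copy, *Lyz1*, and reads shared by both make its level uncertain.

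Among the ligands of CSF1R and the transcription factors of macrophages, *Spi1*, which encodes PU.1, was at 6.76 ± 2.44 CPM in GF+MEV and 7.72 ± 1.35 CPM in GF+PBS livers (SD, n = 5 each, edgeR adjusted p = 0.659), and its highest GF+MEV liver was again liver 4. *Cebpa*, a factor of hepatocytes and myeloid cells, fell by 0.29 on the log2 scale (edgeR adjusted p = 0.014), a call that was lost with the GF+PBS pairs summed (edgeR adjusted p = 0.072). Its exons share 51 bases with Gm45091 on the other strand. The ligand genes *Csf1* and *Il34* were at 7.04 and 1.72 CPM in GF+MEV livers and at 8.82 and 1.38 CPM in GF+PBS livers, neither called by edgeR.

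The partners of the markers were measured too. Of 7 genes that handle haemoglobin and iron with CD163, *Hp*, which encodes haptoglobin and is made by hepatocytes, rose by 0.31 (edgeR adjusted p = 0.012), and *Blvrb*, a biliverdin reductase, fell by 0.28 (edgeR adjusted p = 0.046). The *Blvrb* call was lost in 7 fits that left out 1 liver, GF+MEV 1, 3, 4 or 5 or GF+PBS 1, 3 or 4 (edgeR adjusted p from 0.061 to 0.119), under RLE scaling (adjusted p = 0.050) and with the GF+PBS pairs summed (adjusted p = 0.145). Of 5 partners of C1q in the C1 complex and after it, 0 were called by edgeR, DESeq2 or limma-voom, and 0 had an unadjusted edgeR p under 0.05. *C4b*, which has a close paralog and whose counts are uncertain for that reason, was at 1296 and 1192 CPM in GF+MEV and GF+PBS livers, and *Serping1*, which encodes the inhibitor of C1, at 716 and 697 CPM. Of 6 tested genes of recruited monocytes and lipid-associated macrophages, 0 were called by the same 3 tools. An unadjusted edgeR p under 0.05 was found for 2. The most abundant were *Spp1* at 35.7 and 24.8 CPM and *Cd9* at 9.47 and 7.85 CPM. *Spp1* was also listed as a bile duct marker, and which cells carried its reads was not tested. The other 7 genes of the monocyte and macrophage list, among them *Ccr2* and *Ly6c2*, are absent from the count table. The authors left out genes with few reads, so these 7 could not be tested. Of 13 listed activation genes, 2 were tested, and the others are absent from the count table. Of the 2, *Clec7a*, the beta-glucan receptor, fell by 0.66 (edgeR adjusted p = 0.027), and that call was lost without GF+MEV liver 1, 4 or 5 or GF+PBS liver 1, 2 or 3 (edgeR adjusted p from 0.058 to 0.065), and with the GF+PBS pairs summed (edgeR adjusted p = 0.066).

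**Figure D5:**
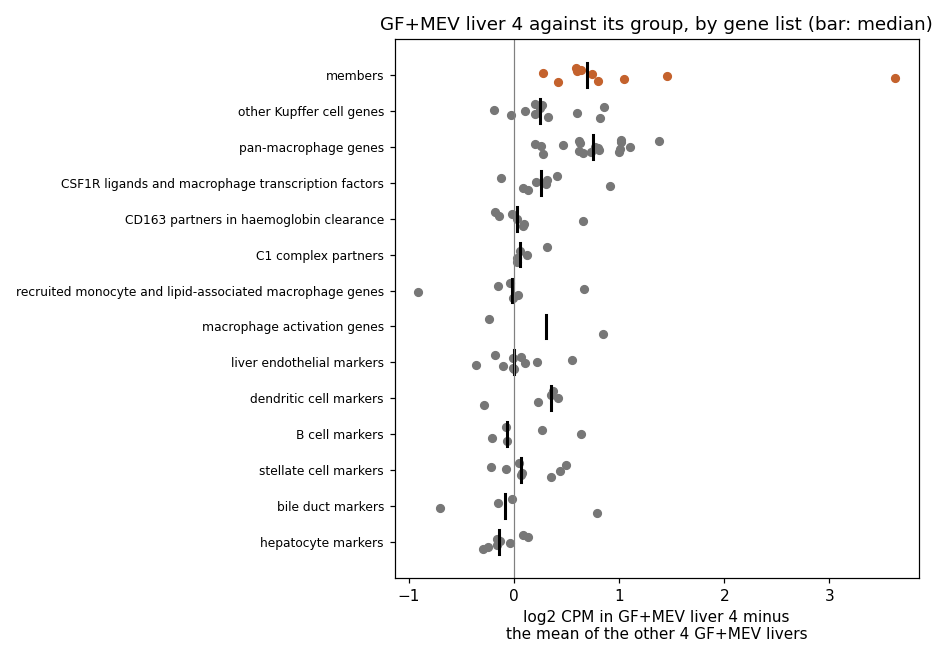
Log2 CPM in GF+MEV liver 4 minus the mean of the other 4 GF+MEV livers (x axis) for each tested gene (points) of each list (rows; the 10 markers are the coloured top row, members), with the median of the list as a bar. The median was 0.69 for the markers and 0.75 for the pan-macrophage genes, and it was 0.01 over all tested genes.

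Markers of other liver cells were compared in GF+MEV liver 4, since that library carried the markers' spread. The summed CPM of the 10 markers was 546 there, against at most 370 in the other GF+MEV livers and from 335 to 477 in the GF+PBS livers. Pan-macrophage genes summed to 375 CPM, against at most 276 CPM in the other GF+MEV livers. Liver endothelial markers summed to 232 CPM, inside the range of 187 to 290 CPM of their group, with 1 of 10 highest in that liver, and stellate cell markers to 229 CPM, inside 175 to 273 CPM, with 0 of 8. Dendritic cell markers, mainly MHC class II genes, summed to 230 CPM, the highest of the group but under all GF+PBS livers (247 to 372 CPM). B cell markers summed to 13.6 CPM, within 10.02 to 17.3 CPM, and bile duct markers to 82.2 CPM, within 64.9 to 118 CPM. Hepatocyte markers summed to 101032 CPM, the lowest of all 10 livers. The highest GF+MEV liver was at 121046 CPM, and the GF+PBS livers ran from 101924 to 118640 CPM. Between the groups, 4 of 5 dendritic cell markers and 2 of 5 B cell markers were called lower in GF+MEV livers. The 4 were genes of MHC class II presentation, which are not particular to dendritic cells. *Clec9a*, the other dendritic cell marker tested, was neither called nor negative. The listed genes *Flt3*, *Xcr1*, *Cd209a*, *Itgax* and *Ccr7* are absent from the count table. In the same comparison over all 10 livers, 7 of the 10 macrophage markers were negative, as were 6198 of 12147 genes, and 0 markers were called. Of 10 listed markers of T and NK cells, 0 were among the tested genes. The part of other cells in these differences was not tested.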

How the data were processed

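Liver RNA of 5 GF+MEV and 5 GF+PBS mice was analysed, with groups taken from the sample labels. Per the submitters' processing notes, base calls were converted with bcl2fastq 2.17 and reads were aligned to GRCm38 with STAR 2.7.3a. The authors counted reads per gene with HTSeq, left out genes with few reads, and deposited raw counts without normalization. The strand setting of the counting is not given in the sources used here. The table also held 5 columns that match no described sample, which were not used.

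Genes with at least 20 counts over the 10 livers were tested with edgeR 4.0.16 in R 4.3.3 (TMM, quasi-likelihood fit on group alone, Benjamini-Hochberg adjustment, threshold 0.05). Each SE was computed on log2 CPM (prior count 2), apart from the edgeR estimate it stands beside. The 95% intervals are from limma-voom (limma 3.58.1). Exact two-sided permutation tests over 252 labelings cannot give a p under 0.00794. RPKM used the union of GENCODE M21 exons. The fits were tested on simulated data. Nothing beyond the labels says how the mice were housed or dosed together. The p-values set the group difference against the spread between livers within groups. An effect of shared housing or dosing that followed the groups could not be told apart from the treatment.

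The markers and all gene lists were chosen with earlier results of these data known. Every marker was named, together with each called gene of the other lists (elsewhere the 2 most abundant) and the 8 genes most like the markers. *Folr2*, *Spi1*, *Csf1* and *Il34* were named after their values were seen, as were the genes called only without GF+MEV liver 4. A gene that this rule names is not reported here. Markers listed for other liver cell types were set beside the macrophage markers, and cell composition was not tested.

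Alternatives were DESeq2 1.42.0, limma-voom, RLE, upper-quartile and library-size scaling, other filters, a block for the replicate number, GF+PBS pairs summed, and each liver left out. The same tools and scalings without GF+MEV liver 4 were added after the data were seen.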

Additional observations from a re-analysis of the deposited data

Results flagged for a closer look

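In 4 genes the level in GF+MEV liver 4 lay far above the other 4 livers of its group, by a gap that was large against the range of the group (Dixon's criterion). *Marco* was at 21.17 CPM there, against 1.28 to 2.173 CPM in the other GF+MEV livers. *Adgre1* was at 25.99 CPM, against 8.14 to 11.5 CPM, and *C1qc* at 49.85 CPM, against 31.2 to 34.7 CPM. *Cd14* was at 13.02 CPM, against 5.93 to 6.83 CPM. In all, 62 groups of values were examined, in which chance would pick out about 3.1, or 1 in 20. Across all tested genes, 1.09% had such a high value in that liver, against 3 of the 10 markers.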

How the results depend on the processing

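Of the 10 markers, 0 were called lower in the fit to all livers and 0 to 3 when each liver was left out in turn, the 3 being without GF+MEV liver 4. Without that liver the number called lower was 4 with DESeq2, 2 with limma-voom, 3 with RLE scaling, 5 with upper-quartile scaling, 5 with library size only and 1 with the GF+PBS pairs summed. All of these counts share the limit that the liver was picked by its levels of the same markers. No marker was called higher under any alternative run. *Marco* changed from 0.56 to -0.39 with limma-voom and to -0.25 under the replicate block, and ranged from -1.19 to 0.81 when 1 liver was left out. *Adgre1* ranged from -0.31 to 0.25 and *C1qa* from -0.17 to 0.049 in those fits, so the sign of *Adgre1* rested on GF+MEV liver 4 and that of *C1qa* turned without GF+MEV liver 1 or 5 or GF+PBS liver 1 or 2. Same-numbered livers did not deviate together (correlations from -0.19 to 0.17), so the numbers were not taken to pair mice, and the replicate block, with 450 genes called higher and 342 lower, changed no marker's call and ended those of *Il18bp*, *Blvrb*, *Lyve1*, *Cd79b* and *Cps1*. Over all genes, 500 were called higher and 428 lower, against 332 and 691 with library size only and 209 lower with the GF+PBS pairs summed, which ended 10 calls of named genes. Calls in the higher direction made up 53.9% of all calls, 41.2% with upper-quartile scaling and 32.5% with library size only. The cause of these shifts was not tested. For *Marco*, with at most 101 reads outside GF+MEV liver 4, and for *Cd163*, with 110 to 217 reads, counts limit the precision.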

Other observations

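Of 5 tested dendritic cell markers, 4 were called lower in GF+MEV livers, all of them genes of MHC class II presentation. Such genes are not particular to dendritic cells. *Clec9a*, the other dendritic cell marker tested, was not called and its log2 fold change was not negative. Its exons share 184 bases with *Clec1b* on the same strand. *Cd74*, the invariant chain, was at 72.0 ± 14.3 CPM in GF+MEV and 107 ± 17.4 CPM in GF+PBS livers (SD, n = 5 each), and *H2-Ab1* at 48.8 ± 11.02 and 75.0 ± 12.3 CPM, both without overlap. *H2-Aa* and *H2-Eb1* fell by 0.61 and 0.55 on the log2 scale. Without GF+MEV liver 4 all 4 stayed called, with log2 fold changes from -0.71 to -0.62. Of 5 tested B cell markers, 2 were called lower, and 1 without GF+MEV liver 4. The B cell receptor genes *Cd79a* and *Cd79b* fell by 0.87 and 0.76 from low levels of 2.39 and 2.34 CPM in GF+PBS livers. The call of *Cd79b* was lost without GF+MEV liver 2, 4 or 5 or GF+PBS liver 3, 4 or 5 (edgeR adjusted p from 0.051 to 0.088), and that of *H2-Eb1* without GF+MEV liver 1, 3 or 5 or GF+PBS liver 2, 4 or 5 (edgeR adjusted p from 0.052 to 0.092). Both were also lost with the GF+PBS pairs summed (edgeR adjusted p = 0.088 and 0.063).

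Sinusoidal endothelial markers went in both directions among 10 genes, with *Clec4g*, a lectin, at 25.7 ± 3.85 CPM in GF+MEV and 36.0 ± 5.62 CPM in GF+PBS livers, and *Lyve1*, a hyaluronan receptor, at 4.80 ± 1.46 and 2.69 ± 0.778 CPM, both called by edgeR. Of 4 bile duct markers, *Krt19*, a keratin, was at 8.20 ± 5.80 CPM in GF+MEV and 0.560 ± 0.190 CPM in GF+PBS livers, without overlap, and *Cdh1*, an adhesion gene shared with hepatocytes, rose by 0.35. Among 8 hepatocyte markers *Tat*, which starts tyrosine breakdown, was at 3652 ± 474 CPM against 850 ± 151 CPM, and *Cps1*, of the urea cycle, rose by 0.38. Of 8 stellate cell markers, 0 were called by edgeR, DESeq2 or limma-voom and 1 had an unadjusted edgeR p under 0.05, with *Dcn* at 84.9 and 87.9 CPM and *Reln* at 44.8 and 39.8 CPM in GF+MEV and GF+PBS livers. Leaving out 1 liver ended the call of *Clec4g* without GF+MEV liver 2 or 5 or GF+PBS liver 3 (edgeR adjusted p from 0.051 to 0.060), and that of *Lyve1* without GF+MEV liver 3 or 5 or GF+PBS liver 3, 4 or 5 (edgeR adjusted p from 0.074 to 0.116). Of the fits that left out 1 liver, *Cps1* stayed called in those without GF+MEV liver 2 or GF+PBS liver 5. With the GF+PBS pairs summed, *Clec4g* (edgeR adjusted p = 0.058), *Lyve1* (0.090) and *Cps1* (0.107) were not called, and with library size only, *Lyve1*, *Cdh1* and *Cps1* were not (edgeR adjusted p from 0.065 to 0.131).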
